A study of Mus musculus with 24 samples.

Results

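LINE-1 (L1) elements are retrotransposons, sequences that move by copying their RNA into DNA. An intact copy carries a 5′ untranslated region with its own promoter, ORF1, which encodes an RNA-binding protein, and ORF2, which encodes the endonuclease and reverse transcriptase. Most copies lost their 5′ end when they were inserted, so that a large share of L1 RNA in a cell can come from fragments inside other transcripts, and only copies that keep the 5′ end carry the promoter. In the mouse the A, Tf and Gf lineages hold the copies that are still mobile, whereas the F, V and Lx lineages and the L1_Rod elements are older. H3K9 methylation and DNA methylation are among the layers known to keep L1 promoters silent.

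The elements described here are the 109 repeat elements, of 1445 in the deposited count table, that belong to the L1 family and whose names begin with L1Md, L1_Mus, L1_Mur, L1_Rod, L1VL or Lx. They are called rodent L1 elements below. The names give 72 L1Md, 2 L1_Mus, 9 L1_Mur, 3 L1_Rod, 2 L1VL and 21 Lx elements. For many subfamilies the annotation holds a plain element (L1MdA_I) and separate elements ending in 5end_noORF1 or 5end_ORF1only, which by their wording model the 5′ end without ORF1 and with ORF1 alone. Of the 109 elements, 50 were plain, 31 were 5end_noORF1 and 28 were 5end_ORF1only. A count sums all genomic copies of an element, so that it has no single position, and TEtranscripts shares reads that fit several copies, so that closely related subfamilies can trade reads. Counts of different elements were not compared with each other, because their lengths were not used here.

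RNA was sequenced from 24 cultures of mouse embryonic fibroblasts (MEF), 3 for each of 8 conditions. All lines carry a conditional allele of Eset1 (Setdb1) and a tamoxifen-inducible Cre, and differ in which of the 6 genes for H3K9 methyltransferases (KMT) are inactive. WT stands for the conditional line without 4-hydroxytamoxifen (4-OHT), with the Eset1 allele still intact, and E1 is the same line given 1 µM 4-OHT. E2 is a clone mutant for Eset2 (Setdb2), without 4-OHT, and E1E2 is that clone with 4-OHT. E1 S1S2 lacks Eset1, Suv39h1 and Suv39h2. E1E2 G9Gl lacks Eset1, Eset2, G9a (Ehmt2) and Glp (Ehmt1). 6KO1 and 6KO2 lack all 6 enzymes, 6KO1 having been derived from the E1 S1S2 clone and 6KO2 from the E1E2 G9Gl clone. Each mutant line is a single clone made with CRISPR/Cas9, so that clone and genotype cannot be told apart, and the 3 replicates of a condition are cultures of the same clone. All conditions other than WT and E2 received 4-OHT. The 3 lines that lack G9a and Glp also lack Eset1 and Eset2, so that loss of G9a and Glp alone was not measured. The question the comparisons address is which enzyme systems hold L1 elements silent in fibroblasts.

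Total counts ran from 24736829 to 37419071 per library. The second WT library stood apart: over the genes tested, its counts differed from the other WT libraries by chi-square values of 59.8 and 50 per gene, against 2.16 to 22.2 for all other pairs of replicates. Its rodent L1 counts were also the lowest of all libraries, and values without it are given beside the results that turn on it. Against WT, the log2 fold changes of Ehmt2 were -1.32, -0.56 and -1.69 for 6KO1, 6KO2 and E1E2 G9Gl, and those of Ehmt1 were -1.05, -0.95 and -1.40. Those of Setdb2 were -1.36 to -1.55 for the 4 conditions from the Eset2 clone and -0.90 for 6KO1, and those of Suv39h1 were -0.81 for 6KO2, -1.14 for E1 S1S2 and -1.73 for 6KO1. Setdb1 had values of -0.57 for E1 and -0.31 for E1E2, and Suv39h2 of 0.76 for E1 S1S2. Counts over a whole gene need not drop when a short deletion inactivates its enzyme.

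Of 10 fibroblast genes, such as Vim, Col1a1 and Thy1, none was at 0 in all libraries, but 5 were called lower in 6KO1, 4 in E1 S1S2, 2 each in 6KO2, E2 and E1E2, and 1 each in E1 and E1E2 G9Gl, where 2 were higher. Over all genes tested, 10.2% were called lower in 6KO1, 5.39% in 6KO2 and 8.41% in E1E2 G9Gl. No such share is given for E1, E2, E1E2 and E1 S1S2, so their fibroblast calls have no background beside them. The summed counts of the 10 fibroblast genes were 94900 to 107300 in 6KO1, 142800 to 146200 in 6KO2, 216200 to 234700 in E1E2 G9Gl and 170000 to 215300 in WT. The surface marker Thy1 fell from 188, 201 and 209 normalized counts in the WT libraries to 0.879, 0 and 0 in 6KO1 and 4.14, 1.14 and 0 in 6KO2. A list of 9 genes of blood, endothelial, epithelial and pluripotent cells summed to 110.5 to 143.9 in WT, 583.8 to 644.1 in 6KO1, 186.7 to 201.2 in 6KO2 and 172.3 to 210.4 in E1E2 G9Gl. Of its 6 members tested, 4 were higher in 6KO1, 3 in 6KO2 and 2 in E1E2 G9Gl, beside 20.6%, 15.3% and 16.8% of all genes tested, and 1 was lower in each. The blood marker Ptprc had 0, 0 and 0 in WT but 15.8, 16.5 and 14.7 in 6KO1 and 45.3, 47.4 and 50.5 in E1E2 G9Gl. In 6KO1 this was a small part of the sum of 583.8 to 644.1, most of which lay on other genes of the list. The part of these shifts in the L1 values was not tested, and in bulk RNA fewer cells of a type and less RNA per cell cannot be told apart.

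Summed rodent L1 counts separated the 3 lines that lack G9a and Glp from all other conditions. Counts were scaled with factors and library sizes from the genes, and are called normalized counts. The WT libraries held 201422, 141384 and 198567 normalized counts on rodent L1 elements. The 6KO1 libraries held 454463, 405522 and 408539, the 6KO2 libraries 326720, 331041 and 337542, and the E1E2 G9Gl libraries 584057, 557613 and 567498. These 3 sets did not overlap each other or any other condition. The means were 2.34, 1.84 and 3.16 times that of WT, and 2.11, 1.66 and 2.85 times without the second WT library. Sets of 3 values given without labels, here and in what follows, are in the order 6KO1, 6KO2 and E1E2 G9Gl. E1, E2, E1E2 and E1 S1S2 ran from 177124 to 225217, around the higher WT libraries, with means 1.09, 1.13, 1.12 and 1.18 times that of WT. That WT mean includes the low second library, whereas the other WT libraries, at 201422 and 198567, lay within the range of these conditions. As a share of all counts, rodent L1 elements took 0.602% ± 0.138 in WT, 1.43% ± 0.0842 in 6KO1, 1.05% ± 0.0208 in 6KO2 and 1.78% ± 0.0347 in E1E2 G9Gl (SD, n = 3).

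**Figure D1:**
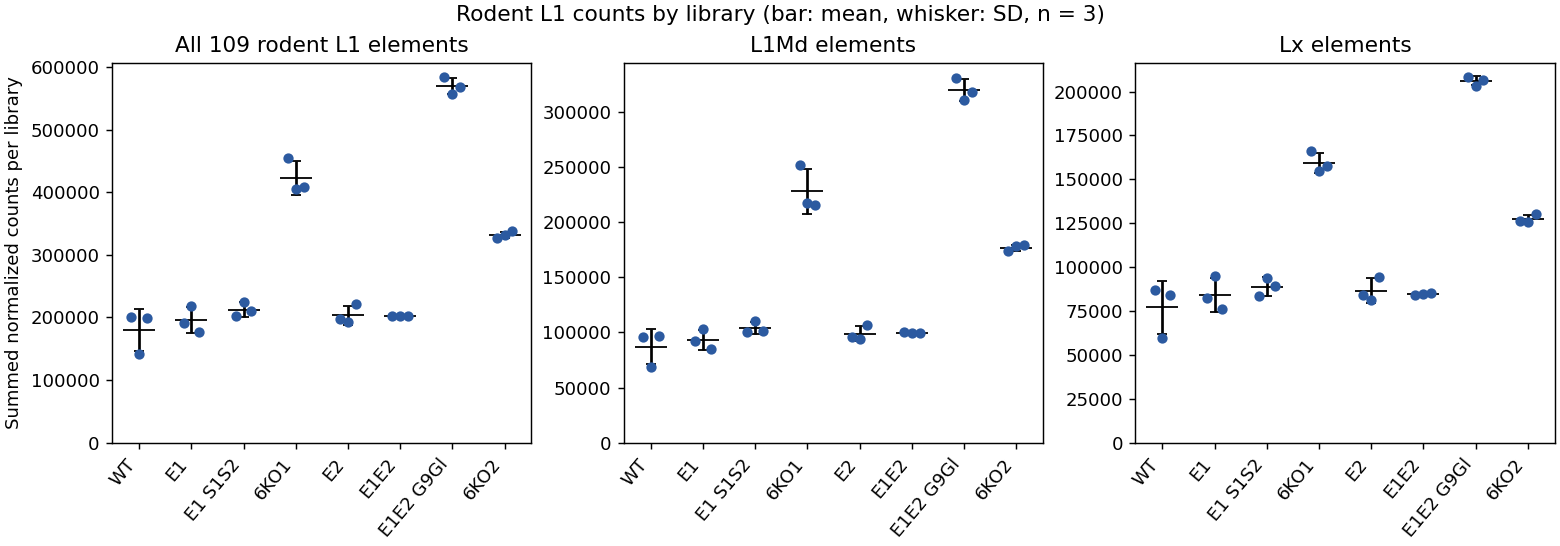
Summed normalized counts (vertical axes, linear from 0) of all 109 rodent L1 elements, of the L1Md elements and of the Lx elements in each library, by condition. Points are libraries, bars are means and whiskers SD (n = 3). For all elements, 6KO1, 6KO2 and E1E2 G9Gl sit above the other conditions, whose libraries run from 141384 to 225217.

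The counts of rodent L1 elements were set against those of the remaining 138 elements of the L1 family. These 138 include 12 elements with names that begin with L1Lx, whose median changes were close to those of the rodent elements. The ratio of rodent L1 counts to those other L1 counts was 1.62 ± 0.0116 in WT, 1.66 to 1.73 in E1, E2, E1E2 and E1 S1S2, 2.47 ± 0.0433 in 6KO1, 2.41 ± 0.0235 in 6KO2 and 2.69 ± 0.016 in E1E2 G9Gl (mean ± SD, n = 3). Being a ratio within a library, it does not depend on the scaling, and the second WT library was not apart in it, with 1.62 against 1.62 and 1.64. Within the rodent elements the L1Md share of the counts was 48.3% ± 0.538 in WT, 53.9% ± 1.32 in 6KO1, 53.3% ± 0.441 in 6KO2 and 56.1% ± 0.477 in E1E2 G9Gl, against 47.6% to 49.3% in the other conditions.

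Nearly every element rose in E1E2 G9Gl. After a low-count filter, 100 of the 109 elements were tested together with all other repeat elements, 1207 in all. The 9 that were not tested were 5end_ORF1only elements of L1MdA, L1MdF, L1MdGf, L1MdMus, L1MdN and L1MdTf, of which 1, L1MdN_I_5end_ORF1only, had no count in any library. Some 5end_ORF1only elements passed the filter only through lines in which they were high, and so had to differ there. Counts and medians, here and by lineage, include such elements. A call required a change of at least 2-fold (log2 fold change of 1) and an adjusted p of at most 0.01 in edgeR's quasi-likelihood test. In E1E2 G9Gl against WT, 97 of the 100 were called higher and 0 lower, where 41.3% of all repeat elements tested were called higher and 2.07% lower. In 6KO1, 80 were called higher and 0 lower, against 32.6% and 2.65% of all repeat elements. In 6KO2 the count was 58 higher and 0 lower, against 22.5% and 2.15%. At an unadjusted p under 0.05, 0 elements were lower in each of these 3 lines, and DESeq2 also called 0 lower. Without the second WT library, 73, 46 and 90 elements were called higher. Factors from the repeat elements alone moved the median of all repeat elements from 0.558, 0.282 and 0.772 to -0.0556, -0.0445 and -0.0693, and then 43, 35 and 57 rodent elements were called higher. Shares of all repeat elements are given for the main thresholds and gene factors only, here and below. Counts under other settings thus have no such share beside them.

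All 100 elements tested had a log2 fold change above 0 in each of the 3 lines, although with factors from the repeat elements alone a few of those named below fell under 0. The median log2 fold change of the rodent elements was 1.48 in 6KO1, 1.09 in 6KO2 and 1.97 in E1E2 G9Gl, where the median over all repeat elements was 0.56, 0.28 and 0.77. With the element that had no WT count set at its bound, the medians were 1.47, 1.08 and 1.97. The other L1 elements, of which 124 were tested, had medians of 0.29, 0.037 and 0.53, with 20, 7 and 26 called higher. Among them were 11 L1Lx elements, whose medians were close to those of the rodent elements and are given under other observations. The 37 SINE elements tested, short elements that borrow the L1 machinery, had medians of 0.020, -0.14 and 0.10, with 0 called higher in each line and 1 called lower in 6KO1. ERVK elements, a family of LTR retrotransposons, had medians of 1.44, 0.90 and 1.57, with 169, 126 and 194 of 270 called higher. The 7 comparisons against WT share the same WT libraries, so that a low or high WT value of an element enters all of them.

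**Figure D2:**
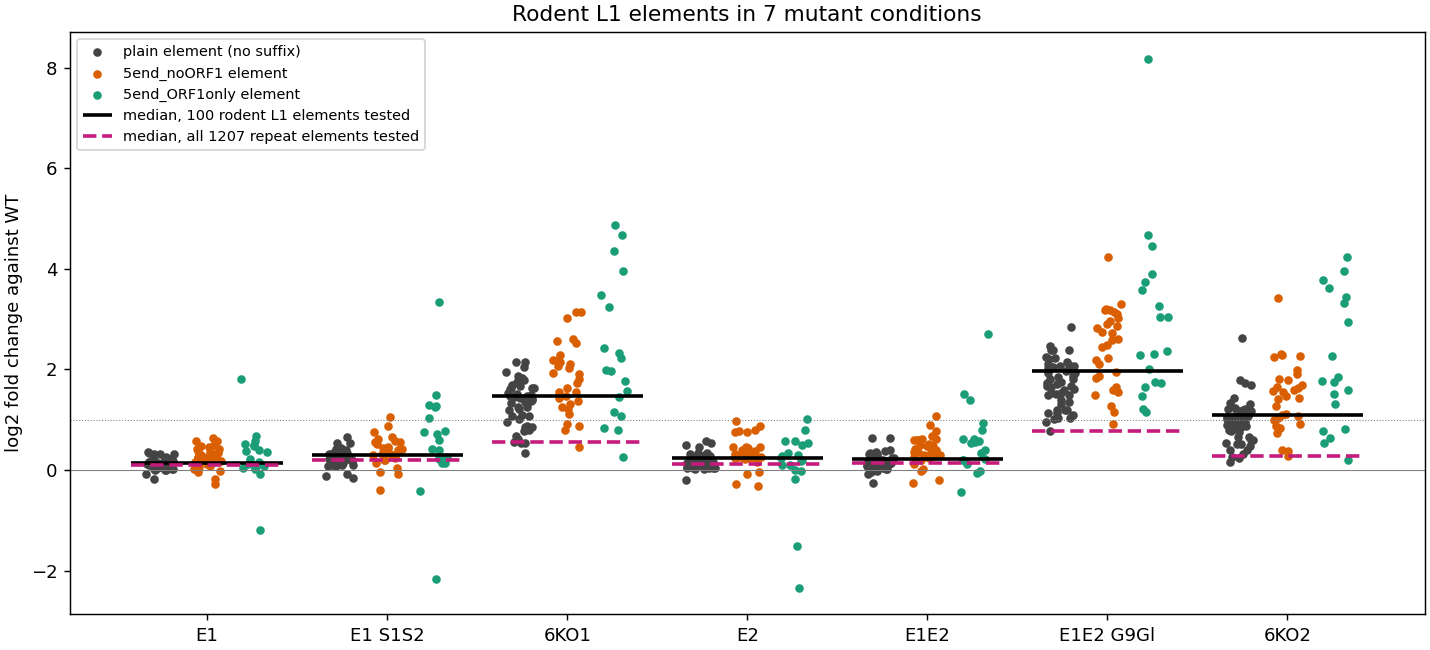
Log2 fold change against WT (vertical axis) of the 100 rodent L1 elements tested, in each of the 7 other conditions. Each point is an element, coloured by kind, the solid bar is their median and the dashed bar the median of all 1207 repeat elements. In 6KO1, 6KO2 and E1E2 G9Gl every point lies above 0, with medians of 1.48, 1.09 and 1.97. The highest point in E1E2 G9Gl is L1MdA_VII_5end_ORF1only, which has no counts in WT, so that its fitted value is not a measured fold.

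Few rodent L1 elements passed the threshold in the 4 mutant conditions that keep G9a and Glp. In E1, 0 of 100 were called higher or lower, against 4.64% and 0.249% of all repeat elements, while 23 were higher and 0 lower at an unadjusted p under 0.05. DESeq2 likewise called 0. In E1 S1S2, 5 were called higher and 0 lower (6.46% and 0.746% of all repeat elements). In E2, 1 was higher and 0 lower (4.97% and 2.32%), and in E1E2, 1 was higher and 0 lower (5.55% and 1.57%). At an unadjusted p under 0.05, 3 elements were lower in E2, 2 in E1E2 and 1 in E1 S1S2, and DESeq2 called 0 lower in each. The shares of rodent elements called in these 4 conditions were near or under those of all repeat elements. The medians were 0.15, 0.23, 0.22 and 0.29 in E1, E2, E1E2 and E1 S1S2, beside 0.097, 0.12, 0.15 and 0.20 over all repeat elements. Without the second WT library they were -0.00793, 0.080, 0.064 and 0.13.

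All 5 elements called in E1 S1S2 model 5′ ends. L1MdA_II_5end_ORF1only had 20.2, 22.8 and 27.1 normalized counts in the WT libraries and 54.8, 62.5 and 55.8 in E1 S1S2, which is 1.29 ± 0.21 (SE, adjusted p = 4.19e-06) on the log2 scale. L1MdA_VII_5end_noORF1 had 166, 101 and 159 in WT and 297, 301 and 288 in E1 S1S2 (log2 fold change 1.06 ± 0.13 SE, adjusted p = 7.3e-09). In both, every E1 S1S2 library was above every WT library. The other 3 were L1MdGf_II_5end_ORF1only, L1MdV_II_5end_ORF1only and L1_Mus3_5end_ORF1only, with log2 fold changes of 1.26, 1.04 and 1.26. Without the second WT library only L1MdA_II_5end_ORF1only was still called, at 1.27 (adjusted p = 0.000122). The single element called in E2 was L1_Mur2_5end_ORF1only, with 134, 95.9 and 179 in WT and 272, 229.6 and 323 in E2 (1.01 ± 0.14 SE, adjusted p = 2.19e-07). In E1E2 it was L1MdA_I_5end_noORF1, with 424, 313 and 426 in WT and 832, 860.3 and 748 in E1E2 (1.07 ± 0.11 SE, adjusted p = 2.99e-11). These last 2 had log2 fold changes of 0.798 and 0.937 without the second WT library and were then under the threshold.

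The A lineage, one of the 3 with mobile copies, rose in nearly all its elements. All 18 L1MdA elements tested were called higher in 6KO1, 16 in 6KO2 and all 18 in E1E2 G9Gl, with medians of 2.05, 1.65 and 2.50. Among the 18, L1MdA_VII_5end_ORF1only had 0 counts in WT and passed the low-count filter through E1E2 G9Gl, so that it had to differ there. Its call in 6KO1 rests on 2 to 3 counts per library. The plain elements L1MdA_I to L1MdA_VII had values of 1.41 to 2.15 in 6KO1, 0.93 to 1.69 in 6KO2 and 1.97 to 2.39 in E1E2 G9Gl, with L1MdA_IV in 6KO2 as the one not called. L1MdA_VI, for example, had 3891, 2781 and 3877 normalized counts for WT, 10430, 8899 and 8716 for 6KO1, 8273, 8562 and 8502 for 6KO2 and 19090, 18080 and 18060 for E1E2 G9Gl. These 4 sets of libraries did not overlap, although the lowest 6KO1 library lay close to the highest of 6KO2. L1MdA_III rose by 2.15 ± 0.12 (SE, adjusted p = 1.74e-21) in 6KO1 and 2.21 ± 0.12 (SE, adjusted p = 4.75e-22) in E1E2 G9Gl, and the difference between these lines was 0.057 ± 0.11 (SE, adjusted p = 0.696).

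The 5′-end elements of the A lineage had higher medians than the plain ones, 2.19, 2.25 and 3.10. L1MdA_VI_5end_noORF1 had 70.3, 36.5 and 81.3 for WT, 599, 550.1 and 487 for 6KO1, 313, 294 and 308 for 6KO2 and 1200, 1163 and 1162 for E1E2 G9Gl. Its log2 fold changes were 3.13 ± 0.16 (SE, adjusted p = 1.96e-22), 2.29 ± 0.16 (SE, adjusted p = 8.56e-17) and 4.24 ± 0.16 (SE, adjusted p = 9.88e-28). L1MdA_I_5end_noORF1 had 1468, 1267 and 1308 in 6KO1 and 1490, 1530 and 1560 in 6KO2, and reached 4002, 3736 and 3684 in E1E2 G9Gl. The remaining 5end_noORF1 elements, of L1MdA_II, L1MdA_IV, L1MdA_V and L1MdA_VII, also had larger log2 fold changes in E1E2 G9Gl than in 6KO1, with 2.91, 3.10, 2.96 and 3.18 in the former and 2.06, 2.19, 1.74 and 2.28 in the latter. L1MdA_III_5end_noORF1 was highest in 6KO2, with 1163, 1214 and 1062 normalized counts, beside 656, 629 and 657 in E1E2 G9Gl and 108, 81.3 and 132 in WT. Its 6KO2 libraries lay above all libraries of both other lines, with a difference from E1E2 G9Gl of 0.82 ± 0.11 (SE, adjusted p = 2.06e-08), under the fold threshold.

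Of the 5end_ORF1only elements of the A lineage, L1MdA_II_5end_ORF1only was highest in 6KO1 and lowest of the 3 lines in E1E2 G9Gl. It had 20.2, 22.8 and 27.1 for WT, 744, 628 and 703 for 6KO1, 266, 344 and 262 for 6KO2 and 65.8, 56.7 and 73.8 for E1E2 G9Gl, and the 4 sets did not overlap. Against WT it rose by 4.88 ± 0.17 (SE, adjusted p = 2.02e-28) in 6KO1 and 1.47 ± 0.22 (SE, adjusted p = 6.06e-08) in E1E2 G9Gl. L1MdA_I_5end_ORF1only was called in all 3 lines, at 1.57, 1.59 and 2.31. The others had few counts. L1MdA_V_5end_ORF1only went from 2.13, 2.74 and 2.01 for WT to 12.3, 8.7 and 6.85 for 6KO1, 33.1, 34.3 and 32 for 6KO2 and 58.2, 63.6 and 64.8 for E1E2 G9Gl. It passed the low-count filter through lines in which it was high, so that it had to differ there. L1MdA_VII_5end_ORF1only had 0 counts in every WT library and 29.1, 35.8 and 44 normalized counts in E1E2 G9Gl. Against a floor of 3 counts over the WT libraries together, its E1E2 G9Gl mean was at least 36.7-fold higher, whereas 6KO1 and 6KO2 had 1 to 3 counts per library. L1MdA_IV_5end_ORF1only and L1MdA_VI_5end_ORF1only were not tested, and had means of 4.8 and 2.69 in E1E2 G9Gl.

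The Tf lineage, which also holds mobile copies, had lower medians than the A lineage. All 7 L1MdTf elements tested were called higher in 6KO1, 3 in 6KO2 and all 7 in E1E2 G9Gl, with medians of 1.35, 0.92 and 1.55. L1MdTf_III stood above L1MdTf_I and L1MdTf_II in fold change. It had 1673, 1309 and 1620 for WT, 6644, 5686 and 5534 for 6KO1, 4996, 5053 and 5213 for 6KO2 and 6742, 5877 and 6418 for E1E2 G9Gl, changes of 1.96, 1.73 and 2.05. L1MdTf_I and L1MdTf_II rose by 1.54 and 1.53 in E1E2 G9Gl, and had values of 0.80 and 0.92 in 6KO2, where they did not pass the fold threshold. L1MdTf_I_5end_noORF1, L1MdTf_II_5end_noORF1 and L1MdTf_III_5end_noORF1 rose by 1.50, 1.55 and 2.49 in E1E2 G9Gl, and L1MdTf_I_5end_ORF1only by 1.74. L1MdTf_III_5end_ORF1only was not tested.

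In the Gf lineage, the third with mobile copies, L1MdGf_II was the member with the larger change. It had 1280, 858 and 1270 for WT, 4191, 3544 and 3654 for 6KO1, 6962, 7076 and 6881 for 6KO2 and 8517, 7878 and 8147 for E1E2 G9Gl. Here the 6KO1 libraries lay below those of 6KO2 without overlap, at a log2 difference of -0.88 ± 0.12 (SE, adjusted p = 4.28e-08), under the fold threshold. L1MdGf_II_5end_noORF1 did not share this order, with 252, 184 and 220 for 6KO1, 164, 153 and 165 for 6KO2 and 661, 621 and 540.1 for E1E2 G9Gl. L1MdGf_I had values of 1.45, 0.76 and 1.36, the 6KO2 value being under the threshold, as it also was for L1MdGf_I_5end_noORF1, with 1.47, 0.91 and 1.65. L1MdGf_II_5end_ORF1only was called in all 3 lines, and L1MdGf_I_5end_ORF1only was not tested. The single L1MdN subfamily rose by 1.44, 1.23 and 2.46 for L1MdN_I, and by 3.03, 2.27 and 3.19 for L1MdN_I_5end_noORF1.

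The older F lineage also rose, with 12, 11 and 12 of its 12 elements tested called higher and medians of 1.63, 1.45 and 2.35. L1MdF_V, the L1Md element with the highest counts, had 8544, 6137 and 8895 for WT, 20120, 17250 and 16580 for 6KO1, 13040, 13420 and 13690 for 6KO2 and 25960, 23970 and 24760 for E1E2 G9Gl. Its change in 6KO2, 0.77 ± 0.12 (SE, adjusted p = 2.29e-07), was the only one of the lineage that did not pass the fold threshold. L1MdF_I, L1MdF_II, L1MdF_III and L1MdF_IV rose by 1.81, 2.08, 2.11 and 1.85 in E1E2 G9Gl and by 1.01 to 1.09 in 6KO2. Their 5end_noORF1 elements, with that of L1MdF_V, rose by 1.86 to 3.20 in E1E2 G9Gl and 1.42 to 2.30 in 6KO2. L1MdF_V_5end_noORF1 had its highest counts in 6KO1, with 1590, 1465 and 1463 beside 1211, 1037 and 1188 in E1E2 G9Gl and 194, 116 and 203 in WT. L1MdF_IV_5end_ORF1only went from 145, 112 and 132 in WT to 647, 567 and 592 in 6KO1 and 461, 471 and 459.5 in 6KO2, and to 2819, 2910 and 2726 in E1E2 G9Gl. These are changes of 2.22 ± 0.12 (SE, adjusted p = 9.15e-21), 1.84 ± 0.13 (SE, adjusted p = 1.95e-17) and 4.45 ± 0.13 (SE, adjusted p = 1.88e-32). L1MdF_I_5end_ORF1only rose from 0 to 4 counts per WT library to 17 to 35 per library in the 3 lines. It passed the low-count filter through these lines, so that it had to differ there. L1MdF_II_5end_ORF1only, L1MdF_III_5end_ORF1only and L1MdF_V_5end_ORF1only were not tested.

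The L1MdFanc elements all rose in E1E2 G9Gl (6 of 6), with 5 in 6KO1 and 3 in 6KO2. L1MdFanc_I and L1MdFanc_II rose by 1.39 and 1.51 in E1E2 G9Gl, and had values of 0.54 and 0.92 in 6KO2, under the threshold. L1MdFanc_I_5end_noORF1 and L1MdFanc_II_5end_noORF1 rose by 2.10 and 1.83 in E1E2 G9Gl, and L1MdFanc_I_5end_ORF1only and L1MdFanc_II_5end_ORF1only by 3.59 and 2.29. L1MdFanc_I_5end_ORF1only had 1, 2 and 7 counts in the WT libraries. It passed the low-count filter through lines in which it was high, so that it had to differ there.

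L1MdMus and L1MdV held the L1Md elements with the smallest changes. L1MdMus_I had 5727, 5785 and 6252 for WT, 8167, 7134 and 7046 for 6KO1, 6626, 6532 and 6625 for 6KO2 and 10470, 9884 and 10130 for E1E2 G9Gl. Its values of 0.33 ± 0.10 (SE, adjusted p = 0.00409), 0.16 ± 0.10 (SE, adjusted p = 0.212) and 0.78 ± 0.10 (SE, adjusted p = 3.85e-09) were all under the fold threshold, and with factors from the repeat elements alone they turned to -0.315, -0.204 and -0.0886. The 5′-end element of the same subfamily, L1MdMus_I_5end_noORF1, rose by 2.53, 1.59 and 2.86. In L1MdMus_II the order was the reverse. The plain element had 1.33, 0.86 and 1.75, beside 0.87, 0.28 and 1.60 for L1MdMus_II_5end_noORF1. The 5′-end element was not called in 6KO1 or 6KO2, and the plain element was not called in 6KO2. L1MdMus_I_5end_ORF1only was called in E1E2 G9Gl (3.05) and 6KO2 (1.77). It had 2, 5 and 6 counts in the WT libraries and passed the low-count filter through these lines, so that it had to differ there. L1MdMus_II_5end_ORF1only was not tested. Among the V elements, L1MdV_I rose by 1.07 in 6KO1 and 2.10 in E1E2 G9Gl, with 0.84 in 6KO2 under the threshold, while L1MdV_I_5end_noORF1 stayed under it in all 3 lines at 0.91, 0.39 and 0.91. L1MdV_II and L1MdV_III were called in E1E2 G9Gl at 1.14 and 1.65. L1MdV_II_5end_noORF1 rose by 2.18 there, and L1MdV_III_5end_noORF1 and L1MdV_III_5end_ORF1only by 1.15 and 1.65. The 6KO1 value of L1MdV_III_5end_noORF1, 0.46, turned to -0.15 with factors from the repeat elements alone. L1MdV_II_5end_ORF1only was highest in 6KO1, with 396, 365 and 388 normalized counts against 219, 219.7 and 228 in E1E2 G9Gl, 187, 135 and 167 in 6KO2 and 10.7, 12.8 and 21.1 in WT, without overlap.

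The Lx elements, all plain, differed among themselves. Their medians were lower than those of the A and F elements, which include 5′-end elements, so that lineage and kind of element are mixed here. In 6KO1 15 of 21 were called higher, in 6KO2 8 and in E1E2 G9Gl 20, with medians of 1.39, 0.93 and 1.60. Lx9, with the highest counts of all rodent L1 elements, had 15040, 10290 and 14700 for WT, 20160, 18810 and 19220 for 6KO1, 16210, 16540 and 17000 for 6KO2 and 27340, 27030 and 27530 for E1E2 G9Gl. It was called in E1E2 G9Gl (1.03 ± 0.12 SE, adjusted p = 7.13e-11) and not in 6KO1 (0.54 ± 0.12 SE, adjusted p = 6.65e-05) or 6KO2 (0.31 ± 0.12 SE, adjusted p = 0.0204), and the last 2 values turned to -0.067 and -0.00851 with factors from the repeat elements alone. Lx8b, the Lx element not called in E1E2 G9Gl, had 0.96 ± 0.12 (SE, adjusted p = 4.13e-10) there. Lx2A1, named after its values were seen, had the largest change of the Lx elements in E1E2 G9Gl (2.40) and in 6KO2 (1.80).

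In 6KO1 and 6KO2 the 5′-end elements of L1_Mur mostly changed more than the plain element of their subfamily. The exception was L1_Mur3_5end_ORF1only in 6KO1, at 0.84 beside 0.96 for L1_Mur3. L1_Mur3, the one with the highest counts, had 6916, 5032 and 6823 for WT, 12760, 11690 and 11930 for 6KO1, 8565, 8779 and 8940 for 6KO2 and 14740, 14420 and 14000 for E1E2 G9Gl, a change of 1.20 ± 0.11 (SE, adjusted p = 5.32e-13) in E1E2 G9Gl and values under the fold threshold in 6KO1 and 6KO2. L1_Mur2_5end_ORF1only had 1305, 1231 and 1313 for 6KO1, 1400, 1315 and 1361 for 6KO2 and 1164, 1149 and 1047 for E1E2 G9Gl. Here the lines were close, at 3.24, 3.32 and 3.04 against WT. The plain element L1_Mur2 rose by 1.675 in 6KO1 and 1.22 in 6KO2. L1_Mus3_5end_ORF1only and L1VL1_5end_noORF1 rose by 3.26 and 2.82 in E1E2 G9Gl, and by 2.27 and 1.27 in 6KO2. L1_Rod had 3922, 2748 and 3817 in WT and 7115, 7096 and 7218 in E1E2 G9Gl (1.03 ± 0.11 SE, adjusted p = 4.48e-11). Its values were 0.54 and 0.24 in 6KO1 and 6KO2, and those of L1_Rod_5end_ORF1only, at 3.10 to 18.3 normalized counts per library in the 3 lines, were 0.25 and 0.20. All 4 turned below 0 with factors from the repeat elements alone.

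**Figure D3:**
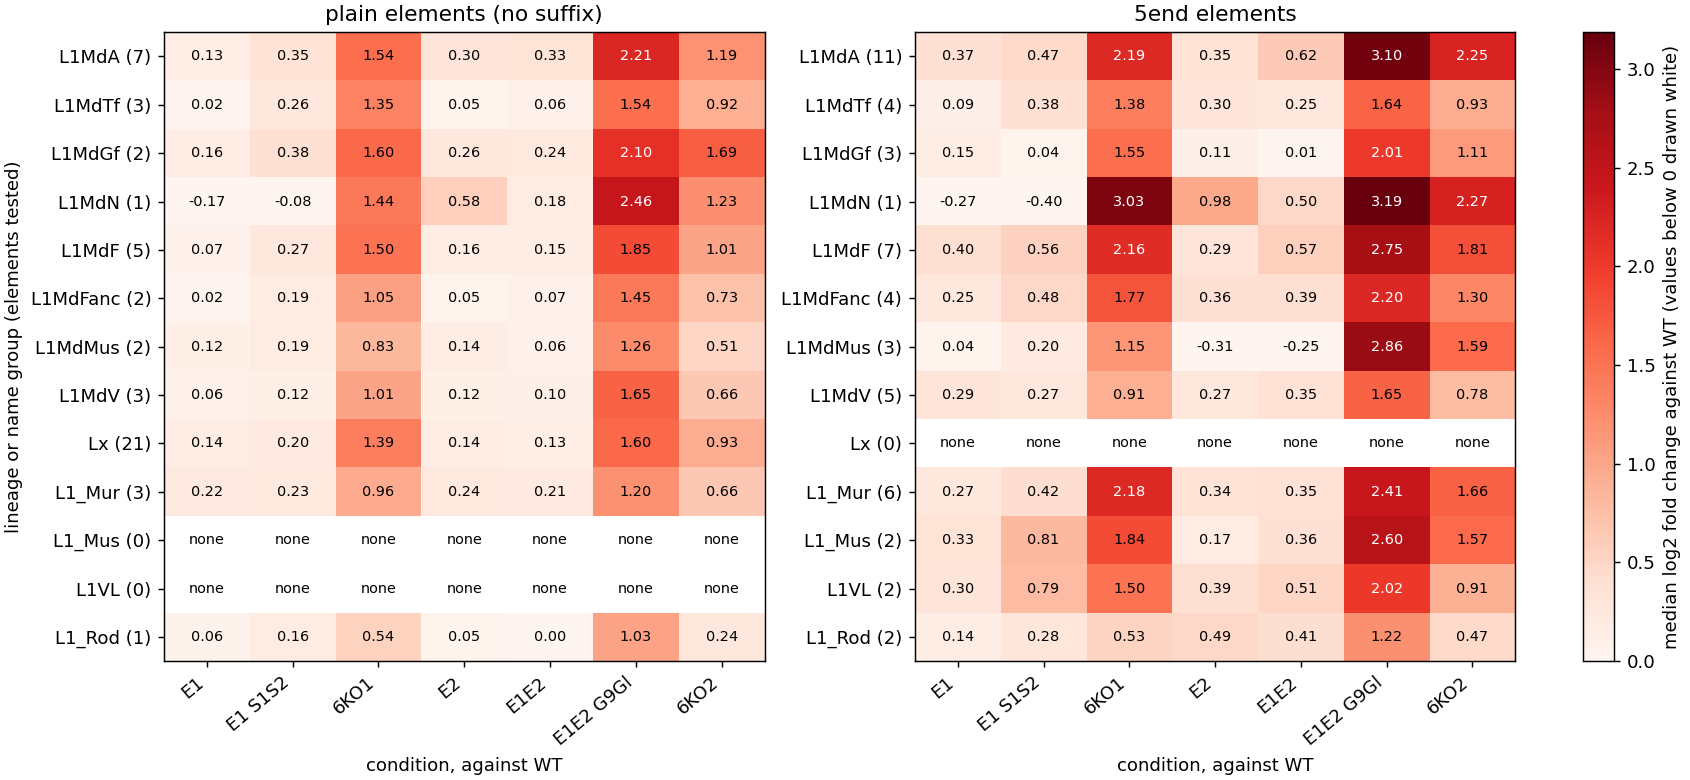
Median log2 fold change against WT (colour and printed value) of the plain elements (left) and the 5′-end elements (right) of each lineage or name group (vertical axis, elements tested in brackets) in the 7 other conditions (horizontal axis). The columns for 6KO1, E1E2 G9Gl and 6KO2 are darker than the other 4 in each group, except for the 5′-end elements of L1_Rod (0.47 in 6KO2 beside 0.49 in E2), and L1MdA is 2.21 for plain and 3.10 for 5′-end elements in E1E2 G9Gl.

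Within a subfamily, the 5′-end elements mostly changed more than the plain element. For 29 subfamilies with both, the 5end_noORF1 element had the larger log2 fold change in 21 in 6KO1, 24 in 6KO2 and 24 in E1E2 G9Gl, and the median difference was 0.27, 0.54 and 0.73. In E1, E2, E1E2 and E1 S1S2 it was larger in 21, 20, 22 and 22, with median differences of 0.15, 0.20, 0.23 and 0.080. For the 17 subfamilies with a tested 5end_ORF1only element, that element was larger in 13, 14 and 15, with median differences of 0.75, 1.09 and 1.29. A 5end_ORF1only element that passed the low-count filter through the line in which it was high had to differ, so that the counts over the elements tested are a description of these alone. Subfamilies share reads and libraries and are not replicates.

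The share of all rodent L1 counts on 5end_noORF1 elements was 4.95% ± 0.0569 in WT, 6.03% ± 0.0356 in 6KO1, 6.21% ± 0.165 in 6KO2 and 7.05% ± 0.143 in E1E2 G9Gl (SD, n = 3). It was 5.43% ± 0.0747 in E1, 5.50% ± 0.205 in E2, 5.63% ± 0.0839 in E1E2 and 5.33% ± 0.176 in E1 S1S2, and every library of these was above the WT libraries. The share on 5end_ORF1only elements, over all 28 whether tested or not, went from 1.46% ± 0.0169 in WT to 2.44% ± 0.0569, 2.41% ± 0.033 and 2.49% ± 0.0456. Being shares within the rodent L1 counts, these do not depend on the scaling. The exceptions to the larger 5′-end change included L1MdV_I, whose 5end_noORF1 element was 1.19 below the plain element in E1E2 G9Gl, and L1MdGf_II, whose 5end_noORF1 element was at 1.11 beside 2.62 in 6KO2.

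**Figure D4:**
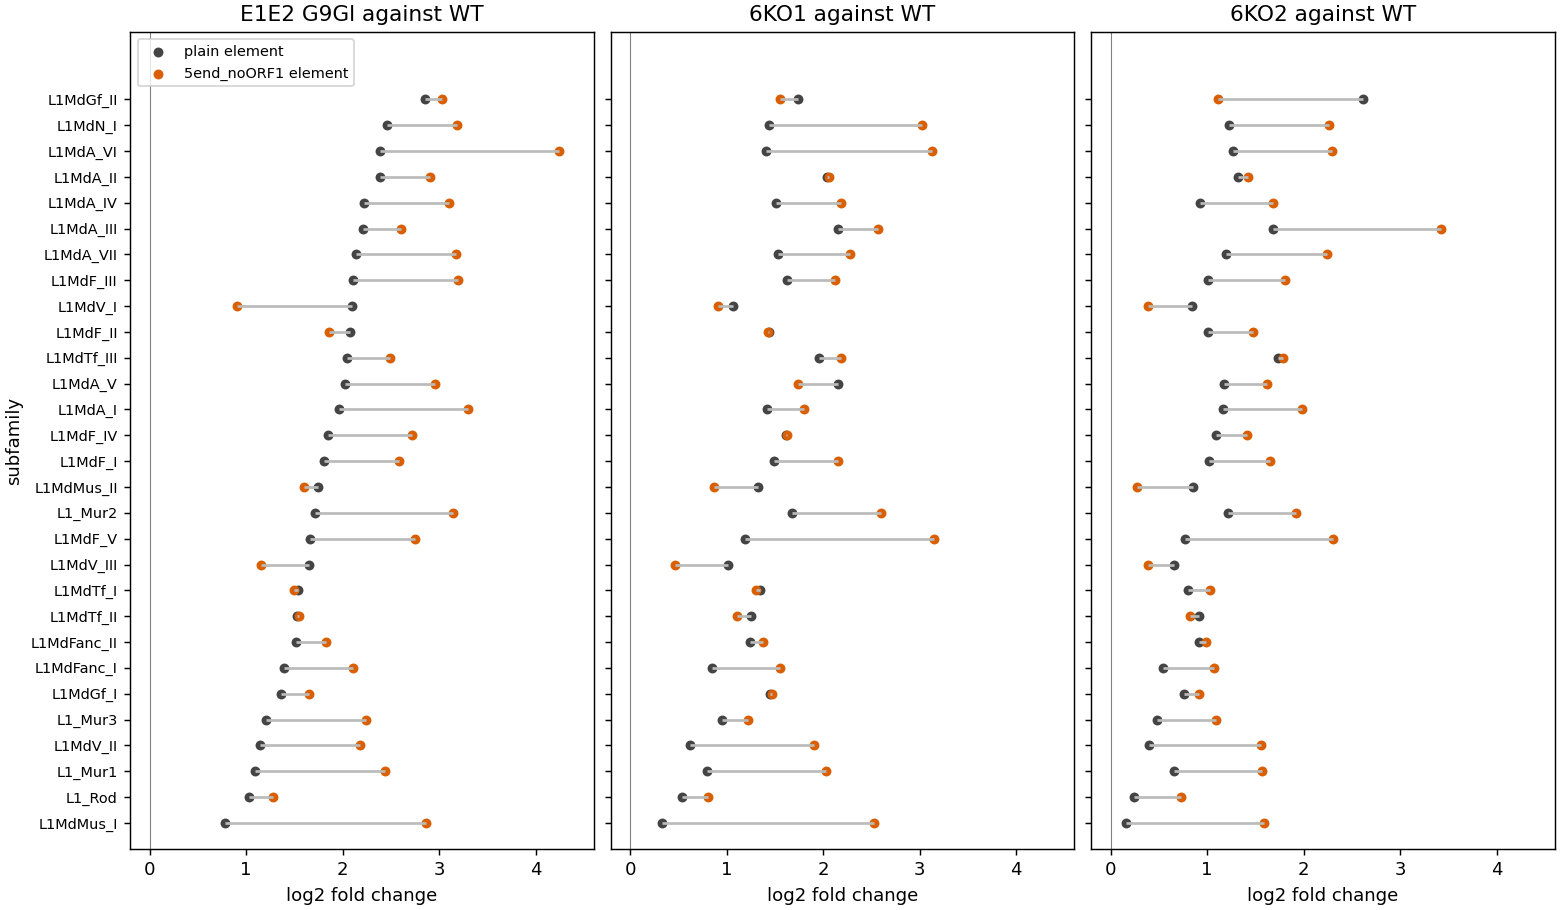
Log2 fold change against WT (horizontal axes) of the plain element (dark) and the 5end_noORF1 element (orange) of 29 subfamilies (vertical axis, ordered by the plain value in E1E2 G9Gl), in the 3 lines without G9a and Glp. The orange point lies to the right in 21 subfamilies in 6KO1, 24 in 6KO2 and 24 in E1E2 G9Gl.

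**Figure D5:**
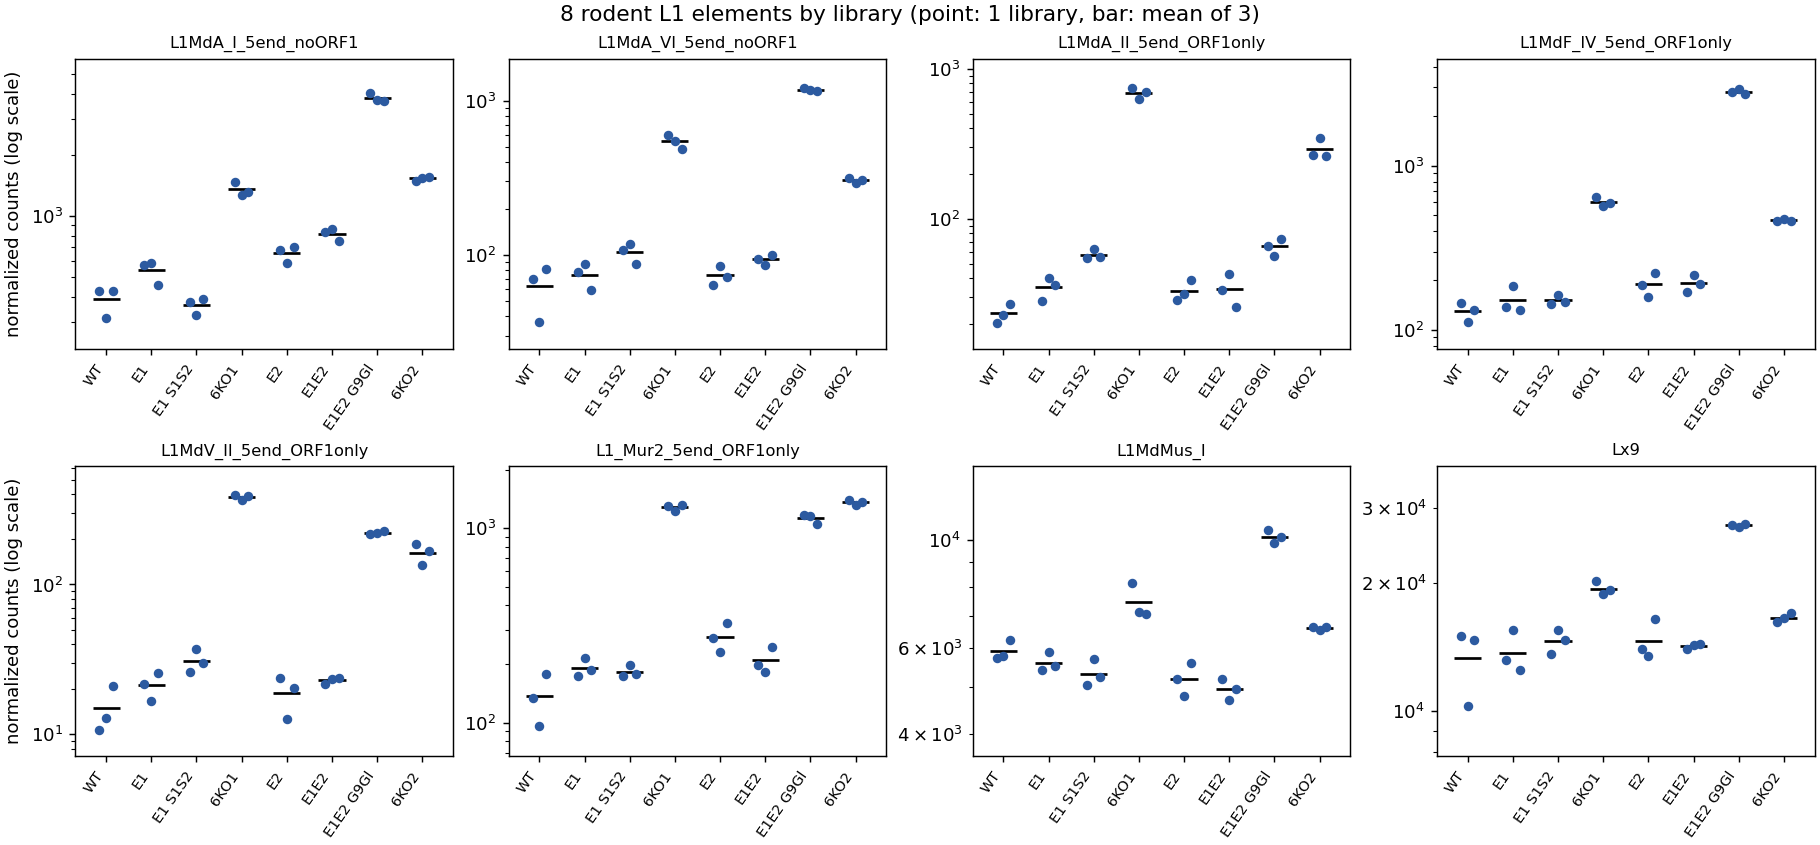
Normalized counts (vertical axes, log scale, each with its own range) of 8 rodent L1 elements in each library, by condition, with the mean of 3 libraries as a bar. L1MdA_I_5end_noORF1, L1MdA_VI_5end_noORF1 and L1MdF_IV_5end_ORF1only are highest in E1E2 G9Gl, L1MdA_II_5end_ORF1only and L1MdV_II_5end_ORF1only in 6KO1 and L1_Mur2_5end_ORF1only in 6KO2, and L1MdMus_I and Lx9 change least.

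Between lines, most calls were found at the steps that removed G9a and Glp, in each case from lines that already lacked Eset1. From E1E2 to E1E2 G9Gl, 89 of 100 elements were called higher and 0 lower (33.6% and 0.994% of all repeat elements), with a median of 1.81. From E1 S1S2 to 6KO1, which removed Eset2, G9a and Glp together, 66 were called higher and 0 lower (23.7% and 0.497%), with a median of 1.23. At an unadjusted p under 0.05, 0 were lower in both, and DESeq2 called 0 lower. The steps among the other enzymes in lines that keep G9a and Glp gave few calls. From E2 to E1E2, 0 were called in either direction (0.414% and 0.414%), with 4 higher and 4 lower at an unadjusted p under 0.05. Between E1 and E1E2, 0 were called (1.08% higher and 1.16% lower among all repeat elements), with 16 higher and 0 lower at an unadjusted p under 0.05. DESeq2 called 0 in both. From E1 to E1 S1S2, 1 was called higher, L1MdGf_II_5end_ORF1only (1.10 ± 0.23 SE, adjusted p = 0.000379), and 0 lower (1.49% and 1.16%).

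Further loss of Suv39h1 and Suv39h2 in the G9a and Glp mutant went with lower rodent L1 counts. From E1E2 G9Gl to 6KO2, 26 of 100 elements were called lower and 1 higher (16.7% and 1.82% of all repeat elements), with a median of -0.79 beside -0.47 over all repeat elements. Of the 26, 15 were 5end_noORF1 elements of 31 tested, 4 were 5end_ORF1only of 19 and 7 were plain of 50. The log2 difference was -1.94 ± 0.13 (SE, adjusted p = 5.65e-17) for L1MdA_VI_5end_noORF1, -1.92 ± 0.14 (SE, adjusted p = 1e-15) for L1MdGf_II_5end_noORF1 and -2.60 ± 0.11 (SE, adjusted p = 1.79e-24) for L1MdF_IV_5end_ORF1only. For each of these the 3 libraries of 6KO2 lay below the 3 of E1E2 G9Gl. The element that was higher was L1MdA_II_5end_ORF1only, by 2.15 ± 0.16 (SE, adjusted p = 6.92e-16). With factors from the repeat elements alone, 5 elements were called lower and 3 higher. 6KO2 is a single subclone of the E1E2 G9Gl clone, so that subcloning and the added mutations cannot be told apart.

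The lines 6KO1 and 6KO2, which lack all 6 enzymes, differed past the fold threshold in few rodent L1 elements, but in many without it. Between 6KO1 and 6KO2, 2 of 100 were higher in 6KO1 and 1 lower (5.05% and 1.41% of all repeat elements), with a median of 0.38 beside 0.26 over all repeat elements. L1MdA_II_5end_ORF1only and L1MdV_II_5end_ORF1only were higher in 6KO1, by 1.25 ± 0.13 (SE, adjusted p = 4.41e-11) and 1.23 ± 0.14 (SE, adjusted p = 1.79e-09), and L1MdA_V_5end_ORF1only was lower, with a log2 difference of -1.81 ± 0.30 (SE, adjusted p = 3.52e-06). Without the fold threshold, 49 were higher and 3 lower, and with factors from the repeat elements alone 0 were higher and 3 lower at the main thresholds. E1E2 G9Gl against 6KO1 gave 14 higher and 1 lower (9.94% and 3.81%), with L1MdA_II_5end_ORF1only as the element that was lower (-3.40 ± 0.15 SE, adjusted p = 1.64e-23) and L1MdF_IV_5end_ORF1only among those that were higher (2.23 ± 0.11 SE, adjusted p = 4.16e-22). With factors from the repeat elements alone, 6 were higher and 2 lower.

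The changes that went with loss of Suv39h1 and Suv39h2 in the E1 and E1E2 G9Gl backgrounds were compared by testing the difference of changes. These backgrounds differ in Eset2 as well as in G9a and Glp, and each line is 1 clone, so that these cannot be told apart. The change from E1 to E1 S1S2, in which Eset2, G9a and Glp are present, was taken from the change from E1E2 G9Gl to 6KO2. Of the 100 elements, 43 had a negative difference past the threshold and 1 a positive one (19.14% and 1.57% of all repeat elements), with a median of -0.96 beside -0.58 over all repeat elements. With 6KO1 in place of 6KO2, 19 were negative and 1 positive (10.9% and 2.9%), although 6KO1 was not derived from E1E2 G9Gl. L1MdF_IV_5end_ORF1only had differences of -2.61 ± 0.17 (SE, adjusted p = 2.66e-17) with 6KO2 and -2.23 ± 0.17 (SE, adjusted p = 5.57e-15) with 6KO1. L1VL1_5end_noORF1, at -1.86 ± 0.20 (SE, adjusted p = 1.25e-10) with 6KO2, had log2 values of 0.30 from E1 to E1 S1S2, not called, and -1.55 from E1E2 G9Gl to 6KO2. L1MdA_II_5end_ORF1only was the positive element in both, at 1.43 ± 0.26 (SE, adjusted p = 9.35e-06) and 2.69 ± 0.26 (SE, adjusted p = 5.85e-12). With factors from the repeat elements alone, 12 were negative and 2 positive with either line.

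Genes known to act on L1 RNA or L1 chromatin were described from 2 lists. Of 19 silencing genes tested, 3 were called higher and 1 lower in 6KO1, 2 higher and 0 lower in 6KO2, and 3 higher and 0 lower in E1E2 G9Gl. The shares of all genes called higher or lower in these lines are those given with the marker genes. Atf7ip, the partner that stabilizes Eset1, had 2008, 1457 and 1939 normalized counts in WT and was higher in all 7 other conditions, by 1.57 to 2.11. Resf1, which supports Eset1 in retroelement silencing, had 4368, 4377 and 4501 in WT and was higher in all 7 by 2.03 to 2.77. A link between these 2 genes and the L1 values was not tested. Fam208a, a subunit of the HUSH silencing complex, was higher in E1E2 G9Gl and 6KO1, and Pphln1, another subunit, was lower in 6KO1 (-1.04), these 2 genes being named after their values were seen. The list also held AU018091, entered as another symbol of Resf1, which the table holds as a gene of its own. It went from 0 to 1.83 normalized counts in WT to 112, 83.5 and 103 in 6KO2 and was left out of the counts above.

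Of 10 genes that restrict L1 after transcription, 6 were called higher in 6KO1, 3 in 6KO2 and 3 in E1E2 G9Gl, and 0, 1 and 0 lower. Tex19.1, a germline gene whose product acts against L1 ORF1 protein, had 0, 2.74 and 4.01 for WT, 439, 457 and 445 for 6KO1, 59, 61.7 and 57.4 for 6KO2 and 833, 882 and 848 for E1E2 G9Gl. It was called higher in all 7 conditions, and E1 had 39.1, 42.4 and 48.4. Piwil2, a Piwi protein of the germline, was called in 6KO1 (2.22 ± 0.30 SE, adjusted p = 6.51e-07) and 6KO2 (1.16 ± 0.35 SE, adjusted p = 0.00617) at under 54 normalized counts per library.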

How the data were processed

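Total RNA of 24 MEF cultures was made into stranded libraries and sequenced paired-end. The authors trimmed the reads with cutadapt 1.8.1, aligned them to GRCm38 with STAR 2.5.2b and obtained counts from TEtranscripts, a program that divides a read among the places it maps to, and deposited raw counts per gene and per repeat element. Whether strand was used in counting is not given in the sources used here. The table held 47937 genes and 1445 repeat elements, and 1 malformed line was left out.

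The deposited counts were tested with edgeR 4.0.16 (limma 3.58.1, R 4.3.3) by the quasi-likelihood test, two-sided, with 1 coefficient per condition over all 24 libraries. Library sizes and TMM factors came from the genes, since the authors also scaled repeats by genes. The default low-count filter left 1207 repeat elements and 18565 genes, each adjusted on its own by the Benjamini-Hochberg method. Calls were made at 2-fold or more in either direction with adjusted p not above 0.01. Alternatives were DESeq2 1.42.0, other factors, filters and thresholds, a replicate block and leaving out single libraries. Scripts were tested on simulated data. Total counts were 24736829 to 37419071 per library, of which 19541909 to 31489070 lay on genes, so that elements with few counts are imprecise. P-values rest on the spread between cultures within a condition, pooled over all 8 conditions and moderated across elements. The 3 cultures of a condition are of 1 clone, so that spread between clones does not enter them.

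The elements and the gene lists were chosen with earlier results of these data known. Elements named are all L1Md elements, the element of highest count in each name group, the 3 largest and 3 smallest changes in each line without G9a and Glp, every element called in the other conditions against WT, and up to 5 elements for the comparisons of 6KO1 with 6KO2, 6KO2 with E1E2 G9Gl and the differences of changes. Genes named are the mutated KMT genes and up to 6 of the L1 control genes called, and exceptions are stated. A gene of these lists is not reported here by name. Figures were drawn with matplotlib 3.10.9. No L1 sequence is printed, since no consensus was used here.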

Additional observations from a re-analysis of the deposited data

Results flagged for a closer look

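The change that went with loss of Suv39h1 and Suv39h2 differed between the E1 and E1E2 G9Gl backgrounds for some elements, by a test of the difference of changes in edgeR. The backgrounds differ in Eset2, G9a, Glp and clone, which cannot be told apart. For the change from E1E2 G9Gl to 6KO2 minus the change from E1 to E1 S1S2, 43 of 100 rodent L1 elements were negative and 1 was positive past the threshold, where 19.14% of all repeat elements were negative. The values of largest size were -5.75 for L1MdA_VII_5end_ORF1only, -2.61 for L1MdF_IV_5end_ORF1only, -2.44 for L1MdA_VI_5end_noORF1, -1.88 for L1_Mus3_5end_ORF1only and -1.86 for L1VL1_5end_noORF1. With 6KO1 in place of 6KO2, 19 were negative and 1 was positive, where 10.9% of all repeat elements were negative. Here the values of largest size were -5.36 for L1MdA_VII_5end_ORF1only, -4.05 for L1MdA_V_5end_ORF1only, 2.69 for L1MdA_II_5end_ORF1only, -2.23 for L1MdF_IV_5end_ORF1only and -1.73 for L1_Mus3_5end_ORF1only. L1MdA_VII_5end_ORF1only had 0 to 3 counts per library outside E1E2 G9Gl, so that its fitted values depend on the prior count, and L1MdA_V_5end_ORF1only had 0 to 4 counts per library in E1 and E1 S1S2, with an SE of 0.855 for its value. 6KO1 was not derived from E1E2 G9Gl.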

How the results depend on the processing

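With factors from the repeat elements alone, 43 elements were called higher in 6KO1, 35 in 6KO2 and 57 in E1E2 G9Gl, with medians of 0.873, 0.771 and 1.13 and summed ratios to WT of 1.53, 1.47 and 1.77, and 0 in E2, 0 in E1E2 and 3 in E1 S1S2. Such factors assume that most repeat elements do not change. Under them 36 were higher in 6KO1 than in E1 S1S2, 54 in E1E2 G9Gl than in E1E2 and 0 in E1 S1S2 than in E1. 6KO2 against E1E2 G9Gl gave 3 higher and 5 lower, 6KO1 against 6KO2 0 and 3, E1E2 G9Gl against 6KO1 6 and 2, and both differences of changes 2 and 12. Values that turned negative were L1MdMus_I (-0.315 in 6KO1, -0.0886 in E1E2 G9Gl, -0.204 in 6KO2), L1MdV_III_5end_noORF1 (-0.15 in 6KO1), L1_Rod (-0.0696 in 6KO1, -0.0815 in 6KO2), L1_Rod_5end_ORF1only (-0.361, -0.131) and Lx9 (-0.067, -0.00851).

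Without a fold minimum, 5 were higher in E1, 14 in E2, 17 in E1E2, 26 in E1 S1S2 and 91 in 6KO2, 2 in E1E2 against E1, 6 (3 lower) in E1 S1S2 against E1, 2 (93 lower) in 6KO2 against E1E2 G9Gl, 49 (3 lower) in 6KO1 against 6KO2 and 56 (3 lower) in E1E2 G9Gl against 6KO1. The differences of changes then gave 2 positive and 53 negative with 6KO1, and 2 and 82 with 6KO2. For elements with a mean above 100, 3 were higher in E1 S1S2, 0 in E1 S1S2 against E1, and 0 lower in 6KO1 against 6KO2. At an adjusted p of at most 0.05, 1 was lower in E1 S1S2 and 1 higher in E1E2 against E2. Without the filter, 2 were higher in 6KO2 against E1E2 G9Gl and 2 lower in E1E2 G9Gl against 6KO1. Without Lx9, the L1Md share was 52.2% in WT, 51.2% in E1, 52.2% in E2, 53% in E1E2, 52.5% in E1 S1S2, 56.5% in 6KO1, 56.1% in 6KO2 and 59% in E1E2 G9Gl. Shares of all repeat elements are not given for the counts under these other settings. Where no cause is given, the cause was not tested.

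Replicate numbers did not pair the cultures: 1 of 21 correlations of same-numbered deviations was over 0.1. The replicate block gave 80 elements called higher in 6KO1, 58 in 6KO2 and 97 in E1E2 G9Gl, as without it.

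Leaving out single libraries gave 1 to 5 elements higher and 0 to 1 lower in E1 S1S2, 0 to 3 higher in E2 and in E1E2, and 1 to 2 higher and 0 to 1 lower in E1 S1S2 against E1. The E1 median ran from -0.00793, without the second WT library, to 0.235, and the 6KO2 value of L1_Rod_5end_ORF1only from -0.338 to 0.625, being -0.00566 without the second WT library.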

Other observations

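A further 12 elements of the L1 family have names that begin with L1Lx and were not among the rodent L1 elements as chosen. They were counted among the other L1 elements above. Of the 11 tested, 9 were called higher in 6KO1, 6 in 6KO2 and 10 in E1E2 G9Gl, with median log2 fold changes of 1.70, 1.10 and 1.94.

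Among the elements under the low-count filter, L1MdMus_II_5end_ORF1only had a mean of 13.1 normalized counts in 6KO1 and 6.52 in 6KO2, beside 1.74 in WT and 0.36 in E1E2 G9Gl. L1MdA_VI_5end_ORF1only had means of 8.59 in 6KO1, 4.04 in 6KO2, 2.69 in E1E2 G9Gl and 0 in WT. Neither was tested.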
